A study of Mus musculus with 4 samples.

Results

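The platelet-derived growth factor (PDGF) family of the mouse was followed here through 4 ligand genes, *Pdgfa*, *Pdgfb*, *Pdgfc* and *Pdgfd*, and 2 receptor genes, *Pdgfra* and *Pdgfrb*. These 6 genes were taken by symbol from the 55357 genes counted in single nuclei of the adult testis, in 4 libraries that together held 37017 nuclei. Whole testes were taken from WT mice (2 libraries) and from *Dhx37*-/- mice (2 libraries), all labelled as 8 weeks old and as biological replicates. The *Dhx37*-/- mice were C57BL/6 based and carried floxed *Dhx37* alleles that Amh-Cre deletes in Sertoli cells, the nurse cells of the seminiferous tubule, so that in the other cell classes the gene itself was not targeted. *Dhx37* encodes an RNA helicase of ribosome assembly. The labels give the WT mice no floxed allele and no Cre, and do not say how many mice stand behind a library.

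PDGF ligands are secreted dimers that bind and pair receptor tyrosine kinases at the surface of mesenchymal cells. PDGF-A and PDGF-C act mainly through the receptor alpha encoded by *Pdgfra*, PDGF-D through the receptor beta encoded by *Pdgfrb*, and PDGF-B through both. PDGF-C and PDGF-D leave the cell in a latent form and bind a receptor only after a protease has cut off their CUB domain. In the testis the family is known for its part in forming peritubular myoid cells and Leydig cells, and receptor beta for recruiting pericytes to blood vessels.

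Levels are given in CPM, the UMIs (captured transcript molecules) of a gene summed over the nuclei of a class in a library and scaled so that all genes sum to the same standard total in each. The chemistry counts the 3′ ends of transcripts, so levels are compared between classes and libraries for each gene and not between genes. Nuclei were placed in 13 cell classes by marker genes, and a class was compared between genotypes when every library held at least 20 of its nuclei. This held for Sertoli, Leydig, interstitial fibroblast, macrophage, later spermatocyte, round spermatid and elongating spermatid nuclei, and peritubular myoid, endothelial, T cell and spermatogonia nuclei were added with at least 5. Since these markers chose the nuclei, their being raised in a class (all markers in 12 of the 13 classes, and 9 of 10 in round spermatids) does not check it. The markers too widely found to be used in the gates, such as 5 of 10 for early meiotic prophase and 2 of 10 for Leydig nuclei, were raised as well. Libraries held 51797891 to 75611263 UMIs, medians of 3304.5 to 4157 UMIs per nucleus, and 19 to 29 cell barcodes in common per pair (0.229 to 0.293% of the smaller library). *Dhx37* gave 4 and 3 UMIs in the WT Sertoli nuclei and 12 and 12 in those of *Dhx37*-/-, or 7.71, 23.8, 10.7 and 5.98 CPM. The groups overlapped at these low counts, and since UMIs mark the 3′ end of a transcript and not a deleted exon, they do not check the labels.

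The 2 receptors were read mostly in somatic nuclei, and the ligands in somatic and germ cell nuclei. Somatic classes made up 7.50% of all nuclei and held 81.0% of the 2510 *Pdgfra* UMIs and 68.7% of the 230 *Pdgfrb* UMIs. Germ cell classes held 65.8% of the *Pdgfc* UMIs, 57.7% of the *Pdgfd* UMIs, 62.3% of the *Pdgfa* UMIs and 47.7% of the *Pdgfb* UMIs, and made up 61.1% of the nuclei. Each member was tested in each of the 7 classes against the mean of the other 6 with edgeR's quasi-likelihood test and Benjamini-Hochberg adjustment over 22073 genes, and 30 of the 42 pairs of member and class passed, where 61.9% of all pairs of gene and class did, so the count by itself is near the background. Against the next highest of the 7 classes 5 of the 6 members passed in their highest class, in contrasts that called 66.7% (*Pdgfa*), 70.1% (*Pdgfb* and *Pdgfc*), 80.2% (*Pdgfd*) and 21.1% (the 2 receptors) of all genes, and *Pdgfc* did not pass. The highest and next highest classes of a member, here and below, were picked from the same values that were tested, so the count is a description.

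**Figure D1:**
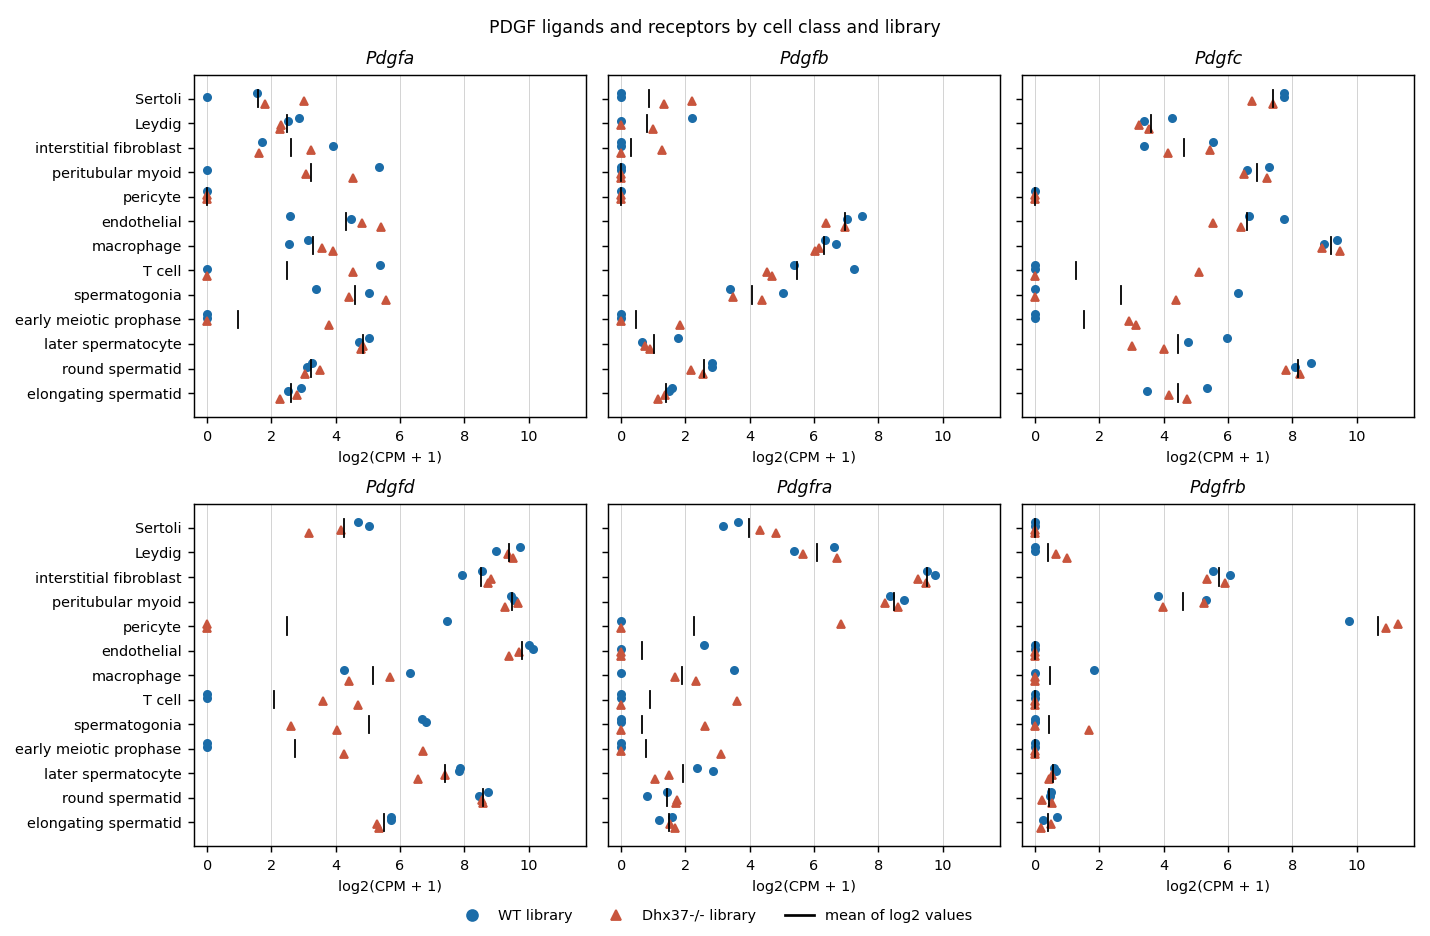
Levels of the 6 members in 13 cell classes, as log2(CPM + 1) on the horizontal axis, with a circle for each WT library, a triangle for each *Dhx37*-/- library and a bar at the mean of the log2 values. *Pdgfra* stands highest in interstitial fibroblast and peritubular myoid nuclei, *Pdgfrb* in the 11 pericyte nuclei, and the 2 genotypes overlap or lie close together in most classes.

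*Pdgfra*, the receptor for PDGF-A and PDGF-C, was highest in interstitial fibroblast nuclei, with 727 and 876 CPM in WT and 601 and 716 CPM in *Dhx37*-/-. Peritubular myoid nuclei, the contractile cells around the tubules, followed with 332, 442, 297 and 389 CPM in the same order. The 4 fibroblast values all lay above the 4 peritubular myoid values, and the fibroblast level was higher by 1.09 on the log2 scale (SE 0.25, adjusted p = 0.00141, edgeR, a contrast that called 8.28% of all genes). Leydig nuclei, the steroid-producing cells of the interstitium, carried 97.0 and 40.6 CPM in WT and 49.0 and 103 CPM in *Dhx37*-/-. Replicates of 1 genotype thus differed as much as the genotypes did. Against the mean of the other classes *Pdgfra* was higher in fibroblast nuclei by 6.53 (SE 0.18, adjusted p = 4.58e-29) and in Leydig nuclei by 3.06 (SE 0.22, adjusted p = 2.45e-15). It was 2.15 to 2.81 lower on that scale in macrophage nuclei and in the 3 late germ cell classes, where at most 10.3 CPM were read. In Sertoli nuclei it stood at 11.6 and 7.94 CPM in WT and 18.8 and 27.4 CPM in *Dhx37*-/-, a level above the other classes by 0.80 (SE 0.32, adjusted p = 0.0252). That call was lost when 1 library was left out, at 0.68 without WT replicate 1 and at 0.79 and 0.49 without *Dhx37*-/- replicate 1 and 2 (adjusted p = 0.103, 0.0766 and 0.294), with size factors of DESeq2 (0.63, adjusted p = 0.0776) and without called doublets (0.70, adjusted p = 0.0711).

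*Pdgfrb*, the receptor for PDGF-B and PDGF-D, marked the pericytes, the cells that wrap small vessels. Its level there was 876 CPM in WT replicate 1 and 2486 and 1927 CPM in the *Dhx37*-/- libraries, from 15, 22 and 9 UMIs in 6, 3 and 2 nuclei, and all 11 nuclei carried a UMI of it. WT replicate 2 held no pericyte nucleus, and the class is too small for a test. Interstitial fibroblast nuclei came next with 45.7 and 65.6 CPM in WT and 39.3 and 59.3 CPM in *Dhx37*-/-, and the genotypes overlapped. Peritubular myoid nuclei gave 13.1, 38.4, 37.1 and 14.7 CPM from 2 to 10 UMIs a library. Fibroblast and peritubular myoid nuclei did not differ beyond their spread (1.05, SE 0.43, adjusted p = 0.153). Among the 7 classes *Pdgfrb* was higher in fibroblast nuclei by 7.00 (SE 0.35, adjusted p = 1.96e-19). No UMI of it was found in 475 Sertoli nuclei, which allows a share of up to 0.632% of nuclei with a UMI, nor in 130 endothelial nuclei, which allows up to 2.31%.

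Of 498 fibroblast nuclei, 66 carried UMIs of both receptors (13.3%), 349 of *Pdgfra* alone and 8 of *Pdgfrb* alone. Of 164 peritubular myoid nuclei, 15 carried both, 93 *Pdgfra* alone and 2 *Pdgfrb* alone. A nucleus with no UMI may still express the gene at this depth, and intervals and limits here cover counting error only.

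*Pdgfa*, the founding ligand of receptor alpha, was sparse in every class, with its highest means in later spermatocyte, spermatogonia and endothelial nuclei. Later spermatocyte nuclei carried 31.5 and 25.7 CPM in WT and 27.5 and 26.5 CPM in *Dhx37*-/-, a narrow range in which the genotypes overlapped. Spermatogonia nuclei carried 9.36, 31.5, 20.3 and 46.1 CPM from 1, 2, 4 and 21 UMIs. Endothelial nuclei carried 5.03, 21.4, 27.0 and 41.7 CPM and peritubular myoid nuclei 39.3, 0, 7.41 and 22.0 CPM, from 0 to 9 UMIs a library, and both overlapped with spermatogonia. The later spermatocyte level was above that of the other 6 classes by 1.82 on the log2 scale (SE 0.18, adjusted p = 3.16e-11) and did not differ from spermatogonia beyond the spread (0.01, adjusted p = 0.979, a contrast that called 52.4% of all genes). Sertoli nuclei, the known source of PDGF-A in the fetal testis, held 14 UMIs of *Pdgfa* in 475 nuclei, with 1.93 and 0 CPM in WT and 7.15 and 2.49 CPM in *Dhx37*-/-. This adult Sertoli level was lower than the mean of the other classes by 1.10 (SE 0.38, adjusted p = 0.0112), and without *Dhx37*-/- replicate 2 by 0.82 (adjusted p = 0.151).

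*Pdgfc*, the other ligand of receptor alpha, was highest in macrophage, round spermatid and Sertoli nuclei, with peritubular myoid and endothelial nuclei next. Macrophage nuclei carried 670.4 and 502 CPM in WT and 483 and 711 CPM in *Dhx37*-/-, with 46.5 to 66.4% of nuclei holding a UMI. Round spermatid nuclei carried 379 and 272 CPM in WT and 221 and 299.9 CPM in *Dhx37*-/-. Sertoli nuclei, 61 and 24 in WT and 148 and 242 in *Dhx37*-/-, carried 214 and 214 CPM in WT and 105 and 168 CPM in *Dhx37*-/-. Both *Dhx37*-/- values lay below both WT values. For this and later cases of genotypes that lay apart, the share of all genes that did so was not counted. Against the other classes these levels were higher by 3.29 (SE 0.19, adjusted p = 2.17e-18), 3.03 (SE 0.17, adjusted p = 6.14e-19) and 1.54 (SE 0.22, adjusted p = 9.23e-08). All 4 macrophage values lay above all 4 round spermatid values, and the mean was 2.02 times higher. The edgeR contrast of the 2 classes was taken in the fit over 11 classes, not in the fit over 7 classes used for the values above. With TMM factors that rescale the classes to each other, it gave 0.54 on the log2 scale and did not pass (adjusted p = 0.0668, a contrast that called 73.5% of all genes), so the size of this gap depends on the scaling. Peritubular myoid nuclei, which express receptor alpha themselves, carried 121 ± 33.3 CPM (SD, n = 4) and stood above the other 10 classes by 1.19 (SE 0.33, adjusted p = 0.00387), and their libraries overlapped with those of Sertoli nuclei. Endothelial nuclei carried 100.5, 214.5, 45.1 and 83.5 CPM from 20, 10, 5 and 2 UMIs, and their level did not pass against the other 10 (0.51, adjusted p = 0.521). Among the 7 classes the Leydig level was the lowest, with 18.0 and 9.55 CPM in WT and 8.46 and 10.6 CPM in *Dhx37*-/-. There the value in WT replicate 1 was below the 20.1 CPM that its share of free RNA would give, so it may not be expression. Free RNA here means the UMIs in droplets without a nucleus, estimated to make up 7.67 to 31.1% of the RNA of a somatic or early germ cell class.

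*Pdgfb*, which binds both receptors, had its highest levels in endothelial cells, the lining of blood vessels, and in macrophages, while the many round spermatid nuclei, at a low level each, held 212 of its UMIs (34.6%). Endothelial nuclei carried 181, 129, 81.1 and 125 CPM from 36, 6, 9 and 3 UMIs, with both *Dhx37*-/- values below both WT values. Macrophage nuclei carried 79.9 and 102 CPM in WT and 70.3 and 64.8 CPM in *Dhx37*-/-, from 21 to 32 UMIs a library, with both WT values above both *Dhx37*-/- values. The macrophage level was above the other 6 classes by 5.20 on the log2 scale (SE 0.29, adjusted p = 9.59e-19) and the endothelial level above the other 10 by 5.12 (SE 0.39, adjusted p = 3.06e-17). Those 2 classes did not differ from each other beyond the spread (0.49, adjusted p = 0.436, a contrast that called 16.2% of all genes). T cell nuclei came next at 59.9 ± 61.8 CPM (SD, n = 4), from 7 UMIs in all, and their libraries overlapped with those of macrophage nuclei. In round spermatid nuclei *Pdgfb* was low, at 3.55 to 6.08 CPM, yet above the other 6 classes by 1.57 (SE 0.29, adjusted p = 7.51e-06), a call lost against the other 10 (0.81, adjusted p = 0.0595). No UMI was found in 164 peritubular myoid nuclei, which allows a share of up to 1.83%.

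*Pdgfd*, the ligand of receptor beta, was present in 5 classes at a high level. Endothelial nuclei carried 1040.3 and 1115 CPM in WT and 829 and 668 CPM in *Dhx37*-/-. Peritubular myoid nuclei carried 694 and 749 CPM in WT and 808 and 617 CPM in *Dhx37*-/-. Leydig nuclei carried 854 and 501 CPM in WT and 652 and 733 CPM in *Dhx37*-/-, and 83.4 to 94.0% of them held a UMI. The WT and *Dhx37*-/- values overlapped in peritubular myoid and Leydig nuclei, and in endothelial nuclei the *Dhx37*-/- values were both below the WT values. The endothelial class of *Dhx37*-/- replicate 2 was 9 nuclei, 5 of them called doublets, against 4 of 70, 1 of 15 and 2 of 36 in the other libraries.

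Fibroblast nuclei carried 377, 244, 451 and 428 CPM of *Pdgfd* and round spermatid nuclei 424, 349.9, 373 and 386 CPM, WT libraries first. Against the other 6 classes *Pdgfd* was higher in Leydig nuclei by 2.98 (SE 0.16, adjusted p = 2.02e-19), in round spermatid nuclei by 2.41 (SE 0.16, adjusted p = 4.98e-17) and in fibroblast nuclei by 1.60 (SE 0.18, adjusted p = 1.18e-09). Endothelial nuclei had the higher mean in CPM (913 against 685 in Leydig nuclei, with overlapping libraries), whereas the edgeR contrast, after TMM rescaling of the classes, put Leydig nuclei higher by 0.23 (adjusted p = 0.60, a contrast that called 24.1% of all genes). The direction thus turns with the scaling, and no order of the 2 is given. Sertoli nuclei, a source of *Pdgfc*, were low in *Pdgfd*, with 25.04 and 31.7 CPM in WT and 17.0 and 7.97 CPM in *Dhx37*-/-, lower than the other classes by 3.48 (SE 0.31, adjusted p = 6.97e-13). In macrophage nuclei of WT replicate 1 the 18.0 CPM of *Pdgfd* were below the 39.8 CPM that free RNA would give.

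UMIs of *Pdgfra* and *Pdgfd* were found together in 92 of 164 peritubular myoid nuclei (56.1%), 242 of 498 fibroblast nuclei (48.6%) and 234 of 913 Leydig nuclei (25.6%). *Pdgfd* was found in 85.2% of peritubular myoid nuclei with a *Pdgfra* UMI and 85.7% of those without, in 58.3% and 48.2% of fibroblast nuclei and in 91.1% and 85.2% of Leydig nuclei, so in peritubular myoid nuclei the 2 genes were found together about as often as their separate shares give. *Pdgfb* and *Pdgfd* were found together in 27 of 130 endothelial nuclei, where *Pdgfd* was in 73.0% of nuclei with *Pdgfb* and 69.9% of those without. *Pdgfb* and *Pdgfc* were found together in 52 of 501 macrophage nuclei, where *Pdgfc* was in 53.6% of nuclei with *Pdgfb* and 57.7% of those without.

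Read by class, the calls spread over the members as follows, each beside the share of all 22073 genes called in that direction. In fibroblast nuclei 3 members were higher and 2 lower (all genes 23.1% and 24.3%). In Leydig nuclei 2 were higher and 2 lower (31.2% and 30.9%). In Sertoli nuclei 2 were higher and 3 lower (29.5% and 34.9%), with *Pdgfrb* counted among the lower at 0 UMIs. In macrophage nuclei 2 were higher and 2 lower (17.3% and 24.9%). Round spermatid nuclei had 4 members higher and 1 lower (45.5% and 32.8%). In later spermatocyte nuclei 1 was higher and 3 lower (36% and 27.6%), and in elongating spermatid nuclei 0 were higher and 3 lower (41.7% and 33.6%). With the smaller classes added (15889 genes), peritubular myoid nuclei had 4 members higher and 1 lower (17.5% and 7.84%), endothelial nuclei 2 higher and 0 lower (11.2% and 3.53%), T cell nuclei 1 higher and 2 lower (8.08% and 8.45%), and spermatogonia nuclei 2 higher and 3 lower (19.9% and 13.9%). In that fit the counts of the 7 classes changed too, given here with the numbers of all 15889 genes called higher and lower. They were 2 higher and 2 lower in Sertoli (5301 and 3835), 3 and 1 in fibroblast (4002 and 1593) and 2 and 1 in macrophage nuclei (3214 and 1262). In later spermatocyte nuclei they were 1 and 2 (6064 and 3786), in round spermatid 2 and 1 (6882 and 5113) and in elongating spermatid 0 and 4 (6283 and 5508). Leydig nuclei again had 2 and 2 (5357 and 3097). With so few members these counts are a description.

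Nuclei of the late germ cell classes and the 10854 nuclei with no class were clustered without using the 6 members. The 10 clusters kept, called germ cell clusters here, were ordered by how much their elongating spermatid markers exceeded their spermatocyte markers. Levels along this order are a description, since the clusters come from the same nuclei. *Pdgfa* was highest in the first cluster, whose 10 leading genes include *Pls1*, with 43.5 ± 9.60 CPM (SD, n = 4 libraries). It stood at 21.1 ± 9.83 in cluster 2 and 27.6 ± 3.2 in cluster 3, and was at 3.05 ± 1.01 in cluster 5. *Pdgfd* stood at 46.8 ± 9.24 CPM in cluster 1 and at 335 ± 64.1 in cluster 3, whose leading genes include *Cadm2* and *Spef2*. *Pdgfc* was near its lowest there, with 6.94 ± 5.50 CPM, and reached 130.2 ± 36.9 in cluster 4, whose leading genes include *Cntn3* and *Foxp2*.

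*Pdgfc* and *Pdgfd* were both highest in cluster 5, whose leading genes include *Cntnap5a* and *Rad51b*. These 7 genes were chosen from the leading genes after their values were seen. *Pdgfc* reached 806 and 601 CPM in WT and 549.5 and 554 CPM in *Dhx37*-/- there, and *Pdgfd* 635 and 531 CPM in WT and 547 and 552 CPM in *Dhx37*-/-. For *Pdgfc* both *Dhx37*-/- libraries lay below both WT libraries, and for *Pdgfd* the genotypes overlapped. In cluster 7 the levels were 279 ± 37.2 CPM of *Pdgfc* and 188 ± 39.1 CPM of *Pdgfd*, and in clusters 8 to 10 no library exceeded 40.4 CPM of *Pdgfc* or 66.9 CPM of *Pdgfd*. Between these, in cluster 6, *Pdgfc* stood at 130.1 ± 47.0 CPM and *Pdgfd* at 245 CPM. Cluster 6 stands apart from the others, with a median of 6644.5 UMIs per nucleus against 1433 to 4209 and with all 3 germ cell marker scores near 0 (-0.21 to 0.03), so its place in the order is uncertain. *Pdgfb* was at most 9.59 ± 1.97 CPM, in cluster 5, and stood at 3.90 ± 1.32 CPM in cluster 10. Of 9115 nuclei gated as round spermatids, 2657 held UMIs of both *Pdgfc* and *Pdgfd* (29.1%), and 73.9% of those with *Pdgfc* also held *Pdgfd* against 60.3% of those without it.

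**Figure D2:**
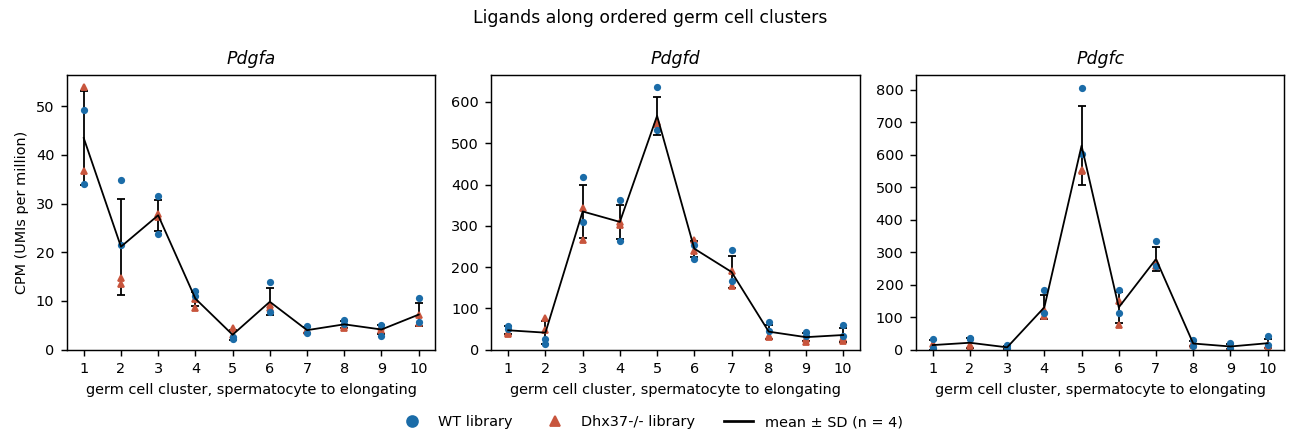
*Pdgfa*, *Pdgfd* and *Pdgfc* in CPM (vertical axes, each with its own scale) along 10 germ cell clusters ordered from spermatocyte to elongating spermatid markers, with a point per library and a line with bars for the mean ± SD of 4 libraries. *Pdgfa* is highest in cluster 1, *Pdgfd* is already high in cluster 3, and *Pdgfd* and *Pdgfc* are both highest in cluster 5.

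Because *Pdgfc* and *Pdgfd* share this spermatid maximum and *Pdgfra* is nearly absent from germ cells, the promoters of these 3 genes are shown, from 250 bases before to 50 bases after the annotated start, 5′ to 3′ on the strand of the gene. They are RefSeq sequences of GRCm38.p6, whose promoter table matched 4 of the 6 members (*Pdgfa*, with 2 starts, was the other). Capitals mark matches, on either strand, to the core of the cAMP response element (TGACG), the GC box (GGGCGG), the TATA box (TATAAA) and the CCAAT box (CCAAT), which hold no overlap with each other here. No coordinate was joined to the counts.
*Pdgfc*, chr3:81036166-81036465, plus strand: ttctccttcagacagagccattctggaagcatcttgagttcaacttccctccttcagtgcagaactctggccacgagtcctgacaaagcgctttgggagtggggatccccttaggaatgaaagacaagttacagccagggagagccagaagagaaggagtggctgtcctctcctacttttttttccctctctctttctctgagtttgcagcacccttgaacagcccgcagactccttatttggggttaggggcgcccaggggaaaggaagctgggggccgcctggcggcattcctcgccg
*Pdgfd*, chr9:6168236-6168535, plus strand: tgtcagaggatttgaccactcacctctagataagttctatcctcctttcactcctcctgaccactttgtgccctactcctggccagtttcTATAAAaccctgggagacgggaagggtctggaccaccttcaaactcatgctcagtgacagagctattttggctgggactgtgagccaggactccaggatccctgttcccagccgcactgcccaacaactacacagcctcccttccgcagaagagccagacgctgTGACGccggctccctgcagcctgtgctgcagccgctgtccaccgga
*Pdgfra*, chr5:75152001-75152300, plus strand: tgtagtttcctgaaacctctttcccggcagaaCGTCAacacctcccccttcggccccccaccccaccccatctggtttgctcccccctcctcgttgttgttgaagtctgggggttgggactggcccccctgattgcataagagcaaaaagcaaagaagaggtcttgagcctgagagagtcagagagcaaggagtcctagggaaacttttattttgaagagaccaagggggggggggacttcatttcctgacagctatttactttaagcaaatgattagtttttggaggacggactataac

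The *Pdgfc* window held none of the 4 motifs. The *Pdgfd* window held TATAAA from base 91 and TGACG from base 255 of the 300 bases, and the *Pdgfra* window held TGACG on the reverse strand from base 33. Of 32851 promoters of that length, 20.8% hold TGACG, 35.7% GGGCGG, 13.6% TATAAA and 37.4% CCAAT. The GC content of the windows was 55% for *Pdgfc*, 56.7% for *Pdgfd* and 51% for *Pdgfra*. The windows of *Pdgfc* and *Pdgfd* thus shared none of these motifs, and a match is a description of letters and not of a bound factor.

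The next comparison asks whether the members differ between the genotypes within a class. Of the 42 pairs of member and class, 27 had enough counts to be tested, and 0 passed edgeR at an adjusted p under 0.05, while 5 had an unadjusted p under 0.05. DESeq2 called 1, given below. The same edgeR test called 0% of all genes in Sertoli, Leydig, fibroblast, later spermatocyte, elongating spermatid and peritubular myoid nuclei and over all nuclei kept. It called 0.082% in macrophage, 0.0092% in round spermatid, 0.0511% in endothelial and 0.871% in spermatogonia nuclei. Among the added smaller classes 6 pairs were tested, 0 passed and 1 had an unadjusted p under 0.05, and over all nuclei none of the 6 members passed by edgeR or DESeq2, with 0 of them at an unadjusted p under 0.05 in edgeR. All differences that follow are *Dhx37*-/- over WT on the log2 scale with adjusted p from edgeR.

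In the targeted Sertoli cells *Pdgfc* differed by -0.71 (SE 0.32, adjusted p = 0.633), *Pdgfd* by -1.29 (SE 0.56, adjusted p = 0.630) and *Pdgfra* by 1.02 (SE 0.61, adjusted p = 0.695). *Pdgfc* was at -0.36 without *Dhx37*-/- replicate 1 and -1.11 without *Dhx37*-/- replicate 2, *Pdgfd* at -1.79 and -0.78, and *Pdgfra* at 1.63 without WT replicate 1. Both *Dhx37*-/- libraries lay below both WT libraries for the 2 ligands and above them for the receptor, with free RNA not taken off. With 2 libraries against 2, an exact permutation p cannot fall below 0.33, and the share of all genes that lay apart was not counted. Free RNA would give the most *Pdgfd* in Sertoli nuclei of WT replicate 1, the lower WT library, at 12.99 CPM. The values read were 7.97 to 31.7 CPM over the libraries. With the estimated free RNA taken off, WT replicate 1 would lie below *Dhx37*-/- replicate 1, so the genotypes would then overlap for *Pdgfd*. No test was run on such values. The *Pdgfd* and *Pdgfra* values rest on 4 to 19 and 1 to 55 UMIs a library. Summed Leydig markers in the same Sertoli nuclei were 137 and 79.4 CPM in WT and 212 and 209.7 CPM in *Dhx37*-/-, and summed fibroblast markers 17.3, 7.94, 42.0 and 49.8 CPM. Both sums lay higher in the *Dhx37*-/- libraries, as *Pdgfra* did, endothelial and T cell sums lay lower, and the sums of the other 9 classes overlapped. Their part in its value was not tested.

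In the receptor-bearing stroma no difference passed. In fibroblast nuclei *Pdgfra* differed by -0.32 (SE 0.18, adjusted p = 0.637), *Pdgfrb* by -0.19 (SE 0.37, adjusted p = 0.932) and *Pdgfd* by 0.42 (SE 0.22, adjusted p = 0.616). In Leydig nuclei *Pdgfra* differed by 0.07 (SE 0.44), *Pdgfd* by 0.01 (SE 0.33) and *Pdgfc* by -0.65 (SE 0.46, adjusted p = 0.867), which was -0.10 without WT replicate 1. In peritubular myoid nuclei *Pdgfra* differed by -0.11 (SE 0.28) and *Pdgfd* by 0.03 (SE 0.24). In macrophage nuclei *Pdgfc* differed by -0.03 (SE 0.23) and *Pdgfb* by -0.44 (SE 0.33, adjusted p = 0.725), and in endothelial nuclei *Pdgfb* differed by -0.79 (SE 0.54, adjusted p = 0.710) and *Pdgfd* by -0.43 (SE 0.35, adjusted p = 0.780).

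**Figure D3:**
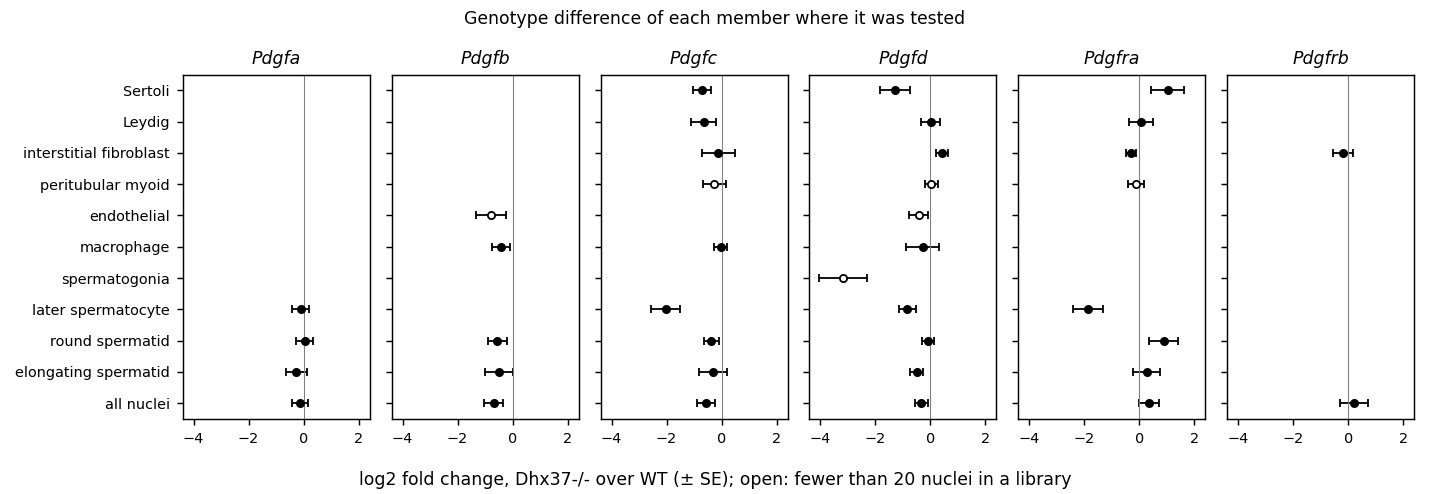
Differences of each member between *Dhx37*-/- and WT, as log2 fold change ± SE on the horizontal axis, in each class where it was tested, with open symbols for classes with fewer than 20 nuclei in a library. None passed at an adjusted p under 0.05, and the farthest from 0 are *Pdgfd* in spermatogonia and *Pdgfc* and *Pdgfra* in later spermatocytes.

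The differences nearest the threshold were in germ cells. In spermatogonia *Pdgfd* stood at 103 and 110.2 CPM in WT and 5.06 and 15.4 CPM in *Dhx37*-/-, from 11, 7, 1 and 7 UMIs (-3.19, SE 0.87, adjusted p = 0.0814). The groups did not overlap, and free RNA alone would give 41.6, 12.1, 4.99 and 7.30 CPM, so the value lies near that level in *Dhx37*-/- replicate 1 and above it in *Dhx37*-/- replicate 2. With 1 more marker in the gate, or without called doublets, 0 members had enough counts to be tested in spermatogonia. In later spermatocyte nuclei *Pdgfc* stood at 61.8 and 26.2 CPM in WT and 7.11 and 14.9 CPM in *Dhx37*-/- (-2.03, SE 0.52, adjusted p = 0.0682). DESeq2 called this difference (-2.02, adjusted p = 0.00466) beside 7.98% of all genes, edgeR without a filter on low counts called it (-1.99, adjusted p = 0.00289) beside 5.68%, and edgeR without the upper limit on genes per nucleus called it (-1.79, adjusted p = 0.0360) beside 14.5%. Without WT replicate 1 it was -1.14 (adjusted p = 0.147). *Pdgfra* differed there by -1.88 (SE 0.55, adjusted p = 0.0814), *Pdgfd* by -0.85 (SE 0.30, adjusted p = 0.118) and *Pdgfa* by -0.11 (SE 0.31, adjusted p = 0.845).

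The makeup of the later spermatocyte class moved with these values. Nuclei of clusters 4 to 7, in which *Pdgfc* is high, made up 19.6% and 16.8% of the class in WT and 5.29% and 7.28% in *Dhx37*-/-. They held 187 of the 255 and 84 of the 92 *Pdgfc* UMIs of the class in WT, and 18 of 32 and 41 of 85 in *Dhx37*-/-. Within clusters 1 to 3, the spermatocyte end of the order, *Pdgfc* stood at 16.5 and 2.68 CPM in WT and 1.32 and 7.61 CPM in *Dhx37*-/-, and the genotypes overlapped. Of the *Pdgfra* UMIs in the class, 12 of 17 and 18 of 22 in WT and 4 of 8 and 0 of 6 in *Dhx37*-/- lay in nuclei that a mitochondrial or an immune profile had kept out of the 10 clusters. The mitochondrial group (1414 nuclei, median 1037.5 UMIs) also had raised Sertoli markers. Their mean log2 ratio to the other clustered nuclei was 1.45, beside 1.26 for later spermatocyte markers. Of the summed markers of the 13 classes, 5 sums lay higher in both *Dhx37*-/- libraries of later spermatocyte nuclei (Sertoli, Leydig, early meiotic, later spermatocyte and elongating spermatid), 3 lay lower in both (endothelial, T cell and round spermatid) and 5 overlapped. Sertoli markers were at 112, 115, 249 and 187 CPM, Leydig markers at 110.4, 77.8, 193 and 165 CPM, and early meiotic markers at 473, 517, 719 and 882 CPM. Endothelial markers were at 184, 270.0, 129 and 89.6 CPM and round spermatid markers at 1124, 1215, 1109 and 923 CPM. Their part in the *Pdgfc* and *Pdgfra* values was not tested.

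The genotype difference of *Pdgfc* was itself unequal between the 7 classes (interaction, adjusted p = 0.0316), as it was for 2.07% of the 22073 genes. The call was lost without called doublets (adjusted p = 0.0513), without the upper limit on genes (0.147), with 1 more marker in the gate (0.178), with classes of at least 5 nuclei (0.215) and with the study's filter alone (0.329). It ranged from -2.03 in later spermatocyte to -0.03 in macrophage nuclei. No other member passed this test, with adjusted p of 0.0866 for *Pdgfra* and 0.170 for *Pdgfd*. WT replicate 1 had the highest *Pdgfc* level in all 3 late germ cell classes and in free RNA, where it stood at 112 CPM against 37.4 CPM in WT replicate 2 and 17.3 and 40.7 CPM in *Dhx37*-/-. In elongating spermatid nuclei *Pdgfc* stood at 40.1, 10.3, 16.9 and 25.6 CPM, so the difference was 0.95 (adjusted p = 0.0275) without WT replicate 1 and -0.96 (adjusted p = 0.00300) without WT replicate 2. Those fits called 10.9% and 9.5% of all genes, against 0% with all 4 libraries. A fit with 1 WT library takes its spread from the *Dhx37*-/- libraries and assumes that the lone library varies like them. Without WT replicate 2 *Pdgfc* also passed in later spermatocyte nuclei, beside 10.8% of all genes, and in round spermatid nuclei, beside 5.88%. Without *Dhx37*-/- replicate 2 it passed in later spermatocyte nuclei beside 0.333%. Without WT replicate 1 *Pdgfd* passed in fibroblast nuclei beside 0.837%, and *Pdgfra* over all nuclei beside 19.2%. The part of free RNA in the germ cell values was not tested.

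**Figure D4:**
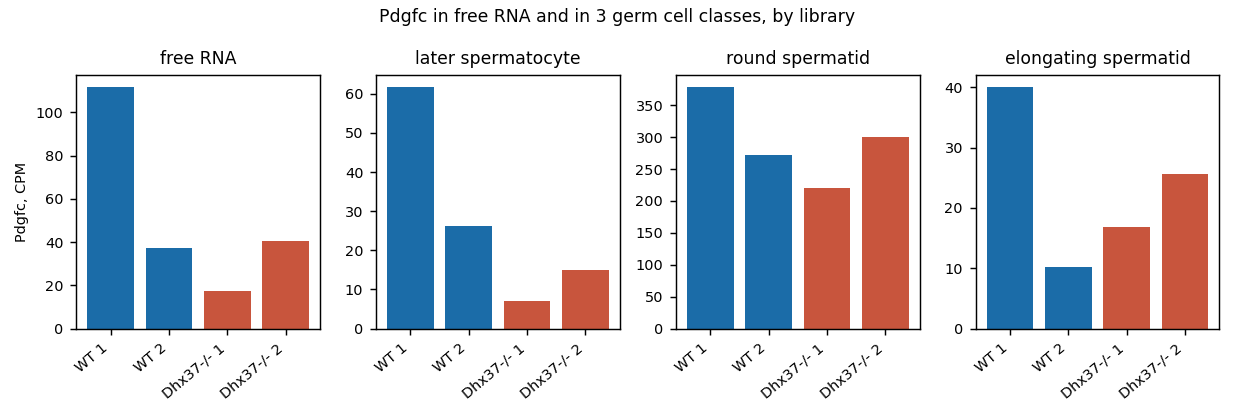
*Pdgfc* in CPM (vertical axes from 0, each with its own scale) in free RNA and in the 3 late germ cell classes, with a bar for each library. WT replicate 1 is the highest bar in each panel, and the other 3 libraries change order from panel to panel.

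Macrophages held the highest summed *Pdgfc* level of any class, and within them it was lower in WT nuclei that held UMIs of MHC class II, the molecules that present peptides to T cells. Adult testis macrophages are known to include MHC class II-high and MHC class II-low forms. Nuclei were split by whether they held a UMI of *H2-Aa*, *H2-Ab1*, *H2-Eb1* or *Cd74*, the last of which encodes the invariant chain that accompanies class II. These 4, called class II genes here, were chosen after the data were seen. In WT, nuclei without such a UMI carried 844 and 834 CPM of *Pdgfc*, and nuclei with one carried 178 and 167 CPM from 18 and 17 UMIs, a level 4.73 and 5.00 times lower. In *Dhx37*-/- the nuclei without one carried 529.7 and 699.9 CPM and those with one 431 and 719 CPM, so that the ratios were 1.23 and 0.974. The nuclei with a class II UMI numbered 44 and 37 in WT and 76 and 78 in *Dhx37*-/-. Of these, 38 and 29 in WT and 48 and 48 in *Dhx37*-/- held at least 2 such UMIs. The 95% counting intervals of the 2 kinds of nuclei were apart in both WT libraries (106 to 282 against 741 to 957 CPM in WT replicate 1) and overlapped in both *Dhx37*-/- libraries with this dividing line of 1 UMI.

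The difference in this ratio between genotypes was seen first and then described, so it carries no test, and 2 libraries against 2 could not give an exact permutation p below 0.33. With at least 2 class II UMIs as the dividing line, *Pdgfc* stood at 112 and 40.7 CPM above the line against 815 and 761 CPM under it in WT, and at 323 and 443 CPM against 549.6 and 845 CPM in *Dhx37*-/-. The intervals were then apart in the *Dhx37*-/- libraries too (234 to 436 against 472 to 637 CPM, and 347 to 557 against 749 to 951 CPM), so whether they overlap there depends on the line. The ratios were 7.25 and 18.7 in WT, the latter from 3 UMIs above the line, and 1.70 and 1.91 in *Dhx37*-/-. Of the 11 macrophage markers, *F13a1* and *Mrc1* were lower in nuclei with a class II UMI in 4 of 4 libraries, *C1qb* and *Ctss* were higher in 4 of 4, and the other 7 differed in direction between libraries. *F13a1*, named after its values were seen, stood at 1664 and 1393 CPM in nuclei with a class II UMI against 4410 and 4285 CPM without in WT, and 3327 and 3428 CPM against 5413 and 3945 CPM in *Dhx37*-/-. Summed class II genes in the nuclei with a UMI were 3823 and 4130.0 CPM in WT and 3861 and 2288 CPM in *Dhx37*-/-. How far free class II RNA or the mixture of macrophage forms enters these values was not tested. *Pdgfb* ran the other way, at 89.1, 147, 89.0 and 86.4 CPM with a class II UMI and 76.7, 58.2, 53.8 and 34.3 CPM without, higher with one in 4 of 4 libraries. Its 95% counting intervals overlapped in 4 of 4 libraries, with a dividing line of 1 UMI and of 2 UMIs.

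**Figure D5:**
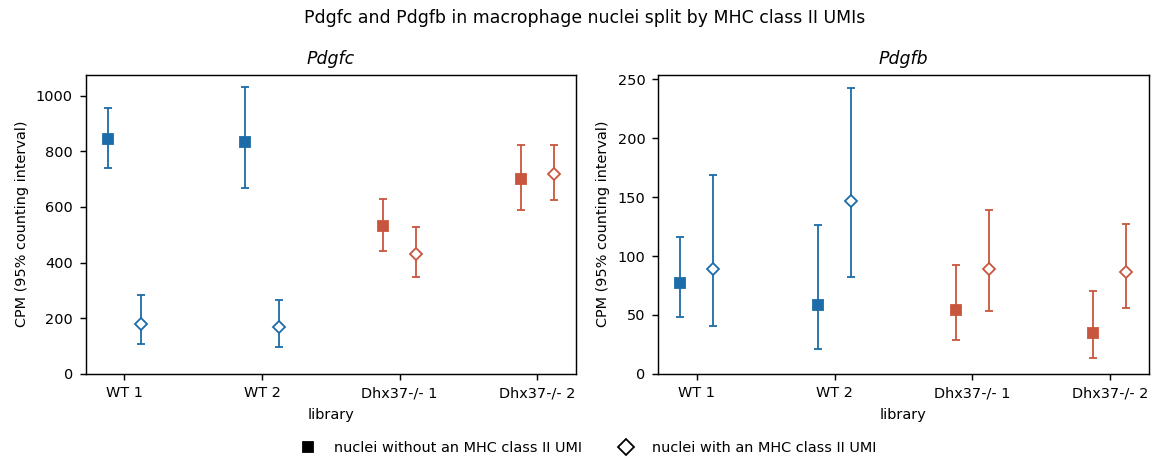
*Pdgfc* and *Pdgfb* in CPM (vertical axes from 0, each with its own scale) in macrophage nuclei with (open) and without (filled) an MHC class II UMI, for each library, with bars for the 95% counting interval. For *Pdgfc* the 2 kinds of nuclei lie far apart in WT and have overlapping intervals in *Dhx37*-/- at this dividing line of 1 UMI, but not at 2 UMIs. For *Pdgfb* the nuclei with class II are higher in each library, with overlapping intervals.

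The genes around the family were read from 4 lists. For comparison, the shares of all genes called higher and lower in the same contrasts were 23.1% and 24.3% in fibroblast, 31.2% and 30.9% in Leydig, 29.5% and 34.9% in Sertoli, 17.3% and 24.9% in macrophage, 36% and 27.6% in later spermatocyte, 45.5% and 32.8% in round spermatid and 41.7% and 33.6% in elongating spermatid nuclei. The medians of all genes were -0.27, -0.21, -0.41, -0.43, 0.07, 0.26 and 0.14 in that order. Each list is to be read against these values, and some counts lie near them.

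Among 14 genes of ligand processing and binding, 12 were tested by class. In fibroblast nuclei 9 were higher and 1 lower, with a median of 2.80 against -0.27 over all genes. In Leydig nuclei the counts were 7 and 2 (median 1.39 against -0.21) and in Sertoli nuclei also 7 and 2 (1.06 against -0.41). In macrophage nuclei 5 were higher and 4 lower (-1.23 against -0.43), and in the 3 late germ cell classes 2 were higher in each and 7 or 8 lower.

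Of this list 3 genes are named here after their values were seen. The contrasts given for them leave out the smaller classes, such as endothelial and pericyte nuclei. *Plat*, the tissue plasminogen activator that can release PDGF-C from its latent form, stood at 24.0 ± 11.9 CPM (SD, n = 4) in Sertoli nuclei and was higher there by 3.83 (SE 0.30, adjusted p = 4.00e-14). Endothelial nuclei had a higher mean of *Plat*, 28.2 ± 19.1 CPM from 12 UMIs, and their libraries overlapped with those of Sertoli nuclei. Pericyte nuclei had a mean of 71.4 CPM from 1 UMI. *Plau*, the urokinase that can release PDGF-D, stood at 19.1 ± 3.03 CPM in fibroblast nuclei (5.28, SE 0.50, adjusted p = 9.79e-12) and at 9.93 ± 2.87 CPM in macrophage nuclei (4.05, SE 0.64, adjusted p = 1.42e-06). *Nrp1*, a co-receptor of several growth factors, stood at 1166 ± 302 CPM in macrophage nuclei (5.73, SE 0.14, adjusted p = 4.86e-31) and at 539 ± 39.1 CPM in fibroblast nuclei (4.60, SE 0.15, adjusted p = 1.06e-26). Its mean was 512 CPM in endothelial nuclei, from 210 UMIs, and 874 CPM in pericyte nuclei, from 31 UMIs.

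All 28 genes of receptor signalling, the adaptors and kinases shared by many receptors, were tested. They were higher in 18, 21, 19 and 16 cases in fibroblast, Leydig, Sertoli and macrophage nuclei and lower in 3, 3, 3 and 2, with medians of 0.77, 0.77, 1.06 and 1.12. In later spermatocyte, round spermatid and elongating spermatid nuclei 6, 2 and 3 were higher and 17, 21 and 24 lower, with medians of -0.84, -1.79 and -1.69.

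Of 14 immediate-early genes tested, which many growth factors induce, 9 were higher and 1 lower in fibroblast, 8 and 1 in macrophage, 7 and 3 in Leydig and 1 and 5 in Sertoli nuclei, the last near the share of all genes that were lower there. In later spermatocyte, round spermatid and elongating spermatid nuclei 1, 3 and 5 of them were higher and 8, 9 and 8 lower. The medians were 1.51, 1.71, 0.54 and -0.38 in these somatic classes and -0.77, -1.84 and -1.28 in the germ cell classes. Among 14 related ligands and receptors of the VEGF, KIT and CSF1 families, 8 were higher in fibroblast nuclei and 4 lower, 6 and 2 in Leydig, 3 and 5 in Sertoli, 2 and 3 in macrophage, 3 and 6 in later spermatocyte, 5 and 7 in round spermatid and 2 and 5 in elongating spermatid nuclei. The medians were 2.39, 1.03, -0.77, -0.75, 0.24, -0.73 and -0.42 in that order, and the Sertoli counts were near the shares of all genes. Between genotypes 0 genes of the 4 lists passed in any of the 7 classes by edgeR. The medians of the lists then lay between -0.43 and 0.62, against -0.05 to 0.01 over all genes.

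Over 11 classes, the genes whose mean log2(CPM + 1) was most like that of a member were found among 17330 genes with at least 20 CPM in a class. The values are Pearson correlations over 11 classes that share libraries and so are a description. For *Pdgfra* they were *Gm34294*, *Hoxc6*, *Olfml1*, *C1s1* and *Fzd1* (0.97 to 0.96), and for *Pdgfrb* *Gm10824*, *Tcf23*, *Susd2*, *9330159F19Rik* and *Cxcl14* (0.98). The 2 receptors correlated at 0.86 with each other. That value leaves out the pericytes, where *Pdgfrb* stood at 1763 CPM and *Pdgfra* at 37.7 CPM from 1 UMI. For *Pdgfd* they were *Fam13c*, *Gm34648*, *Bmp6*, *Gulp1* and *S1pr3* (0.94 to 0.91), and for *Pdgfb* *Fgf13*, *Prdm1*, *Ahr*, *Ulbp1* and *Mfng* (0.95 to 0.91). *Pdgfc* had the weakest likenesses, with *Alpk1*, *Dst*, *Gm16000*, *Anks1* and *Gm4841* (0.87 to 0.84), and *Pdgfa* was most like *Tra2a*, *Tmem128*, *Zfp105*, *Zswim1* and *Wdr53* (0.95 to 0.89).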

How the data were processed

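Nuclei of whole testes were profiled in 4 libraries. The authors aligned the reads with Cell Ranger (7.2.0 per the file headers) and deposited raw UMI counts per gene and barcode, without normalization or filter. The paper gives mm39 as the build and the submitters' processing notes GRCm38, so no coordinates were joined to the counts, and whether reads in introns were counted is not given in the sources used here. Barcodes were called against free RNA (adjusted p under 0.01) and kept by the study's limits (500 to 5000 genes, a minimum of 500 UMIs and a mitochondrial share of 25% or less). The upper limit on genes acted unequally on the genotypes, and took out 13 and 15 nuclei in WT and 204 and 302 in *Dhx37*-/-. A nucleus took a class when it held at least 3 distinct markers and more of their UMIs than the mean share over its library's nuclei gives (Poisson p under 1e-06, or 0.001 for early germ cells), leading by 1 marker where several classes passed, or, for late germ cells, when its score led by 0.3. Of 33181 nuclei scored so, 3258 lay within 0.05 of that margin. In all 10854 nuclei had no class, 755 passed only a looser gate (2 markers, p under 0.001) and 19 passed several gates with no lead, and all were left out of class sums. Doublets (4.23 to 4.60% called) were kept except in an alternative. Gate limits and the rule that kept 2 germ cell clusters out of the order (1414 nuclei led by mitochondrial genes and 34 by immune genes) were set after the data were seen, and the members and lists were chosen with earlier results of these data known.

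For each library and class the UMI counts were added up and fitted with edgeR 4.0.16 (TMM, default filter, two-sided quasi-likelihood test, threshold 0.05), with DESeq2 1.42.0 beside it, in R 4.3.3, after a trial on simulated data. Genotypes were compared within each class, and classes in a fit with a term for each library. With 2 libraries per genotype, p-values measure the spread between libraries, which may be technical. Nuclei of the late germ cell classes and those with no class were clustered on 2000 variable genes, 20 PCs and 20 neighbours at resolution 0.6 with scanpy 1.11.5. The genes named are the 6 members, *Dhx37*, genes of the 4 lists that pass between genotypes, 5 most alike genes per member, and markers; leading genes of germ cell clusters, MHC class II genes and 3 genes of ligand processing were chosen after their values were seen. Where all 4 libraries are given, they stand in the order WT replicate 1 and 2, *Dhx37*-/- replicate 1 and 2. Counting intervals of CPM are exact Poisson intervals. Shares of nuclei with a UMI, thinned to 1000 UMIs, were set against each other by an exact permutation test (two-sided), and 0 reached 0.05, since the smallest p possible is 0.33.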

Additional observations from a re-analysis of the deposited data

Results flagged for a closer look

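The genotype difference of *Pdgfc* was unequal between the 7 cell classes by a test of the difference itself (edgeR interaction, adjusted p = 0.0316). On the log2 scale it was -2.03 in later spermatocyte, -0.71 in Sertoli, -0.65 in Leydig, -0.37 in round spermatid, -0.31 in elongating spermatid, -0.12 in fibroblast and -0.03 in macrophage nuclei, so no class stood above 0. Within classes 0 of these 7 values passed. The adjusted p of the interaction was 0.0513 without called doublets and between 0.147 and 0.329 under the other alternatives for nuclei, as given below. Later spermatocyte nuclei of clusters 4 to 7 were 19.6% and 16.8% of the class in WT and 5.29% and 7.28% in *Dhx37*-/-, and their part in the interaction was not tested.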

How the results depend on the processing

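The count of members that differed between genotypes, 0 in the 7 classes, was 1 (*Pdgfc* in later spermatocyte nuclei) without the filter on low counts, under DESeq2 and without the upper limit on genes, and 0 to 3 when 1 library was left out. Fits with a lone library in an arm take the spread from the other arm. Without WT replicate 2 the 3 were *Pdgfc* in the 3 late germ cell classes (beside 10.8, 5.88 and 9.5% of all genes), without *Dhx37*-/- replicate 2 the 1 was *Pdgfc* in later spermatocyte nuclei (0.333%), and without WT replicate 1 the 2 were *Pdgfd* in fibroblast nuclei (0.83, adjusted p = 0.0463, beside 0.837%) and *Pdgfc* in elongating spermatid nuclei (10.9%). Over all nuclei the count was 0 to 1 with a library left out, the 1 being *Pdgfra* without WT replicate 1 (0.94, adjusted p = 0.0249), in a fit that called 19.2% of all genes. The interaction count of 1 became 3 without the filter on low counts (*Pdgfd* 0.0292 and *Pdgfra* 0.0234 beside *Pdgfc* 0.000245) and 0 with the study's filter alone (*Pdgfc* 0.329), without the upper limit on genes (0.147), with 1 more marker in the gate (0.178), without called doublets (0.0513) and with classes of at least 5 nuclei (0.215). The classes of at least 5 nuclei, and the alternatives for nuclei and doublets in the interaction, were chosen after seeing the data. Of the 6 members, 6 passed in their highest class, 5 also against the next highest of the 7 classes (contrasts that called 21.1 to 80.2% of all genes), and 1 (*Pdgfra*) against the next highest of the 11 classes (8.28% of all genes). These classes were picked from the same values that were tested, so the counts are a description. The number of calls between classes, 30 beside 61.9% of all pairs of gene and class, was 24 to 29 with a library left out and 29 or 30 under the other alternatives. The shares of all genes in those fits were not summed over classes. With classes of at least 5 nuclei there were 40 calls, but out of more pairs, from 11 classes and not 7, so 40 is not a rise. That fit called 2341 (endothelial) to 11995 (round spermatid) of 15889 genes in a class. Shares of nuclei gave 0 under each alternative. Size factors of DESeq2 moved the median of all genes in the class contrasts from -0.41 to -0.58 in Sertoli and from -0.43 to -0.26 in macrophage nuclei.

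Some genotype differences near 0 changed sign. *Pdgfd* in Leydig nuclei was -0.0165 with size factors of DESeq2, -0.0167 in DESeq2 and -0.0237 without the upper limit on genes. *Pdgfc* in fibroblast nuclei was 0.0318 with the replicate block and 0.59 with 1 more marker in the gate, and *Pdgfc* in macrophage nuclei was 0.0137 without the filter on low counts. *Pdgfd* in macrophage nuclei was 0.0152 without the upper limit on genes, *Pdgfa* in round spermatid nuclei -0.00212 without called doublets, and *Pdgfra* in elongating spermatid nuclei -0.20 with the study's filter alone. With a library left out the ranges were -0.27 to 0.36 (*Pdgfd*) and -0.56 to 0.81 (*Pdgfra*) in Leydig nuclei, -0.96 to 1.67 (*Pdgfc*) and -0.47 to 0.11 (*Pdgfrb*) in fibroblast nuclei, -0.30 to 0.24 (*Pdgfc*) and -1.16 to 0.90 (*Pdgfd*) in macrophage nuclei, -0.33 to 0.17 (*Pdgfa*) in later spermatocyte nuclei, -0.21 to 0.29 (*Pdgfa*) and -0.23 to 0.12 (*Pdgfd*) in round spermatid nuclei, -0.60 to 0.0213 (*Pdgfa*) and -0.96 to 0.95 (*Pdgfc*) in elongating spermatid nuclei, and -0.33 to 0.0485 (*Pdgfa*), -0.12 to 0.94 (*Pdgfra*) and -0.33 to 0.96 (*Pdgfrb*) over all nuclei. The cause of these changes was not tested.

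The replicate numbers of the labels do not pair the samples: deviations of same-numbered libraries correlated at -0.29 to -0.01 over genes, and with a replicate block 0 members passed within classes and 0 over all nuclei (*Pdgfc* in later spermatocyte nuclei -1.95, adjusted p = 0.153). Low UMI counts limit *Pdgfa*, *Pdgfb* and *Pdgfrb* most, and 27 of the 42 pairs of member and class had enough UMIs to be tested between genotypes.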
